A study of Rattus norvegicus with 6 samples.

Results

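The muscle miRNAs of the miR-1, miR-206 and miR-133 family were followed in the hearts of rats with and without chronic colitis. They were chosen by name from the probes of the array, namely rno-miR-1-3p, rno-miR-1b, rno-miR-206-3p, rno-miR-133a-3p, rno-miR-133a-5p, rno-miR-133b-3p and rno-miR-133c. These 7 were among 761 rat miRNAs with a probe on the array, and all 7 were among the 282 that were detected on at least 3 arrays and were tested. Heart RNA came from 6 adult male Sprague Dawley rats, each on an array of its own. The 3 controls (animals 9, 10 and 11) are labelled control with no other treatment named, and the 3 DSS rats (animals 13, 14 and 16) received 3% dextran sodium sulfate, which injures the colonic epithelium, in 4 cycles of 5 days with 9 days of normal water between them, over 8 weeks. The labels name the tissue as heart, without a chamber or a cell type. RNA was stained with a single dye, Cy5, and each probe was printed in 4 spots.

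MicroRNAs are short RNAs that bind messenger RNAs mainly through their seed, the bases 2 to 8 from the 5′ end, and lower the output of those messengers. miR-1 and miR-133a are among the most abundant miRNAs of cardiac and skeletal muscle. Their hairpins lie close together and are cut from a shared primary transcript, while miR-206 and miR-133b form a like pair that is known mainly from skeletal muscle. In muscle cells miR-1 and miR-206 are known to favour differentiation and miR-133 to favour proliferation, and in the heart both families are known for effects on growth and on conduction.

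The mature sequences are shown to mark which members share a seed. This sharing came with the choice of members by family name and is not a result. Each is written 5′ to 3′ with the seed in capitals. The first 3 share the seed GGAAUGU, which 3 of the 761 probe sequences carried (0.394%).
rno-miR-1-3p: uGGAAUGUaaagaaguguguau
rno-miR-1b: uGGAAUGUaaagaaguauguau
rno-miR-206-3p: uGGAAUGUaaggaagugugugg
The next 2 share the seed UUGGUCC, which 2 of the 761 carried (0.263%).
rno-miR-133a-3p: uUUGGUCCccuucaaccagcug
rno-miR-133b-3p: uUUGGUCCccuucaaccagcua
The last 2 have seeds of their own.
rno-miR-133a-5p: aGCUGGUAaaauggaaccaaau
rno-miR-133c: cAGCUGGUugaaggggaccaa

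Counted from the 5′ end, rno-miR-1b differed from rno-miR-1-3p by the single substitution G17A, with the base of rno-miR-1-3p first. rno-miR-206-3p differed from rno-miR-1-3p by A11G, A21G and U22G. rno-miR-133b-3p differed from rno-miR-133a-3p by G22A at its last base. Whether the probes separate members that differ by 1 base was not tested. Nor was it tested whether the rno-miR-206-3p probe also binds rno-miR-1-3p or rno-miR-1b. rno-miR-133a-5p is the other arm of the rno-miR-133a-3p hairpin. The 21 bases of rno-miR-133c were found whole in the reverse complement of the 22 bases of rno-miR-133a-3p, so this probe reads the opposite strand of the same place.

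All 7 sequences on the array were the same as those of RefSeq (assembly GRCr8), which gave their positions. rno-miR-1-3p lies at chr18:2160339-2160360 on the minus strand, in the hairpin gene Mir1. rno-miR-133a-3p lies at chr18:2157886-2157907 and rno-miR-133a-5p at chr18:2157923-2157944, both on the minus strand in Mir133a1. There were 2368 bases between these hairpins, and both lay within the span of the protein-coding gene Mib1. rno-miR-133c lies at chr18:2157886-2157906 on the plus strand, in Mir3582. rno-miR-206-3p (chr9:30590747-30590768) and rno-miR-133b-3p (chr9:30594629-30594650) lie on the plus strand in Mir206 and Mir133b, with 3801 bases between the hairpins, and both hairpins overlap the long non-coding RNA LOC120094648. rno-miR-1b lies at chr3:187864736-187864757 on the plus strand in Mir1b, which overlapped no other gene of the table. RefSeq listed each miR-133a arm at 1 place, and whether another locus gives the same arms was not tested. The hairpins of the first pair are printed with their mature arms in capitals, to show that 1 precursor gives both miR-133a arms.
Mir1: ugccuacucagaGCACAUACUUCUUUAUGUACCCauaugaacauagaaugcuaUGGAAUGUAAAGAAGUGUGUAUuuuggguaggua
Mir133a1: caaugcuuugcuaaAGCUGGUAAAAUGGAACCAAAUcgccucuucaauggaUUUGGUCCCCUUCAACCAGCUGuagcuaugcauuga

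The 3 miRNAs with the miR-1 seed were higher in DSS hearts, and no miRNA of the miR-133 group was. On the arrays rno-miR-1-3p and rno-miR-1b rose more than 8-fold, rno-miR-206-3p rose 2.34-fold from a low level, and rno-miR-133a-5p fell 2.11-fold. From these arrays the paper also listed miR-1-3p, miR-1b and miR-206-3p as significantly increased and miR-133a-5p as significantly decreased. By RT-qPCR the paper reported a significant rise of miR-1b, by a smaller fold than here. By RT-qPCR it found no significant change of miR-1-3p or miR-206-3p. The RT-qPCR used more rats per group than the arrays and a ribosomal RNA as internal control, so its animals and scaling were not those of the arrays. rno-miR-133a-3p, rno-miR-133b-3p and rno-miR-133c had lower means in DSS hearts that did not pass the test. The test was limma with Benjamini-Hochberg adjustment over all 282 miRNAs, at a threshold of 0.05, and a miRNA is called when it passed. Thus 4 of the 7 were called, 3 of them higher and 1 lower. Over all miRNAs tested 139 (49.3%) were called, 59 (20.9%) higher and 80 (28.4%) lower, so a call was common on these arrays and the share of members called lies near that of all miRNAs. The median change of the 7 members was -0.34 on the log2 scale, against -0.06 over all miRNAs tested. The values of the groups did not overlap for 6 of the 7 members, and they did not overlap for 187 of the 282 miRNAs (66.3%). The calls did not hold without DSS rat 16. Without it, limma called none of the 282 miRNAs (131 had an unadjusted p under 0.05, 4 of them members), and rno-miR-1-3p, rno-miR-1b and rno-miR-206-3p differed by 2.99, 2.96 and 1.13 with an adjusted p of 0.0608 each. Without control rat 9, rno-miR-1b differed by 2.24 with an adjusted p of 0.0666 in limma, and members called were 2. Precision is limited by having 3 arrays per group. Levels below are log2 of the signal after background correction and normalization across arrays, and a difference of 1 is 2-fold. Probes can differ in how well they bind, so the levels of different probes do not rank their miRNAs by amount.

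**Figure D1:**
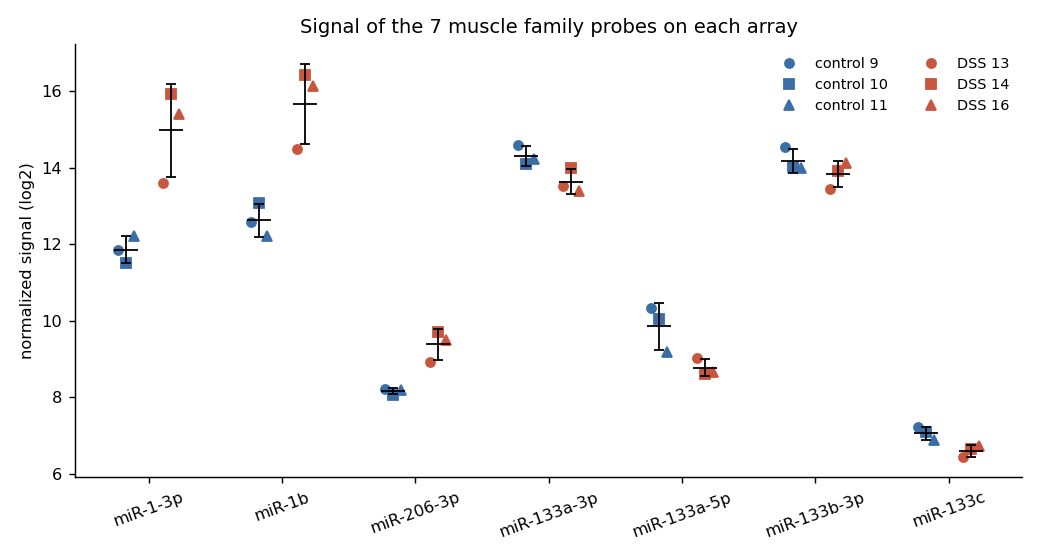
Normalized log2 signal of each member on each of the 6 arrays (control blue, DSS red, a marker per rat), with the mean and SD of 3 rats as black bars. rno-miR-1-3p, rno-miR-1b and rno-miR-206-3p were higher on all 3 DSS arrays, rno-miR-133a-3p and rno-miR-133a-5p lay lower on them, and rno-miR-133b-3p overlapped.

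rno-miR-1-3p, the main miR-1 arm of muscle, read 11.85, 11.50 and 12.21 in control rats 9, 10 and 11 and 13.59, 15.91 and 15.41 in DSS rats 13, 14 and 16. The groups were far apart, and DSS rat 13 lay well below the other 2 DSS rats. The mean went from 11.86 ± 0.35 to 14.97 ± 1.22 (SD, n = 3), a rise of 3.11 ± 0.59 on the log2 scale (SE) or 8.66-fold, with an adjusted p of 0.0151 in limma. Before any correction the mean brightness of its 4 spots, in scanner units, was 3822, 4037 and 6573 in controls and 18971, 40329 and 34379 in DSS rats, so the order of the groups was already present in the scanner values. Without DSS rat 13 the change was 3.97, without control rat 9 it was 2.45, and with quantile normalization it was 2.17. With scaling to the 75th percentile of the probes detected on all arrays and of all probes it was 2.48 and 2.30. In the authors' own normalized table its values were 3035, 3505 and 5207 against 19048, 56463 and 45024.

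rno-miR-1b, with the same seed from another chromosome, read 12.57, 13.07 and 12.21 in controls and 14.47, 16.41 and 16.13 in DSS rats. Again DSS rat 13 was the lowest of its group and still above every control. The rise was 3.05 ± 0.53 (SE), or 8.29-fold, from 12.62 ± 0.43 to 15.67 ± 1.05 (SD, n = 3), with an adjusted p of 0.0151 in limma. Its mean brightness was 6439, 12806 and 7764 in controls and 34184, 56156 and 55141 in DSS rats. On the arrays of DSS rats 14 and 16 its spots read up to 59496 and 59128. A scanner limit of 65535 units was assumed, and no spot of this probe reached it. Spot medians do not show whether single pixels did. Without control rat 9 and without DSS rat 13 the difference was 2.24 and 3.82, and it was 2.11 with quantile normalization and 2.34 and 2.15 with scaling to the 75th percentile of the probes detected on all arrays and of all probes.

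Among the 135 miRNAs with an increase, rno-miR-1-3p had the 4th largest and rno-miR-1b the 7th. The probes of rno-miR-1-3p and rno-miR-1b together gave 2.18%, 3.67% and 2.51% of the summed miRNA signal before normalization across arrays in the controls and 8.50%, 18.0% and 18.5% in the DSS rats. The share was thus raised on every DSS array, and least on that of rat 13.

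rno-miR-206-3p, the member of this seed group known from skeletal muscle, was dim. It read 8.21, 8.06 and 8.18 in controls and 8.91, 9.71 and 9.51 in DSS rats, and was detected on all 6 arrays. The controls were tightly grouped, and all DSS rats were above them. The rise was 1.23 ± 0.24 (SE), from 8.15 ± 0.08 to 9.38 ± 0.41 (SD, n = 3), with an adjusted p of 0.0151 in limma, and ranked 39th among increases. Its mean brightness was 202, 250 and 323 in controls and 754, 775 and 679 in DSS rats, which did not overlap either. With scaling to the spike-in and to the 5S rRNA probes the change was 2.29 and 1.93. The offset of 50 in the background correction compresses the fold of a dim probe such as this. Whether binding of rno-miR-1-3p or rno-miR-1b, whose probes were far brighter, adds to its signal was not tested.

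**Figure D2:**
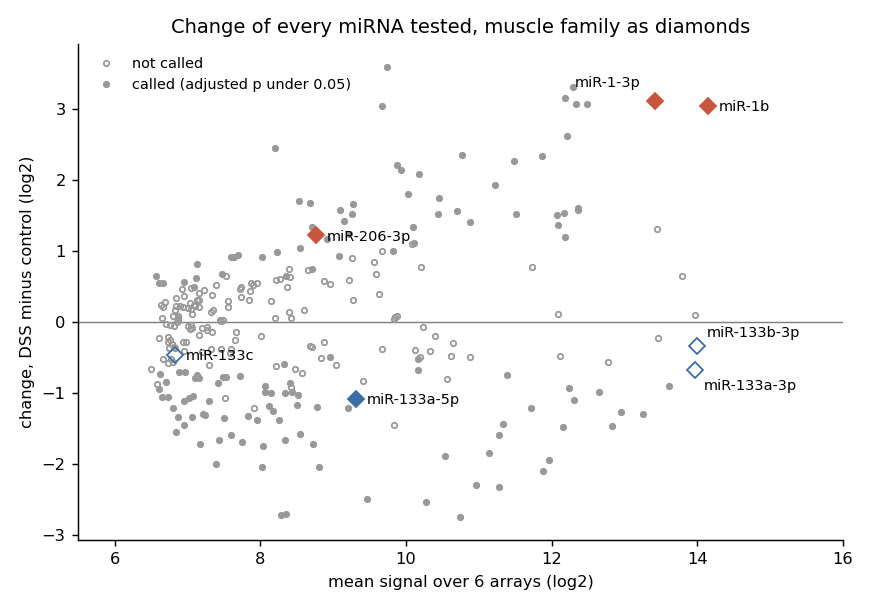
Change between DSS and control hearts (log2, y axis) against the mean log2 signal over the 6 arrays (x axis) for all 282 miRNAs tested. Diamonds are the members, filled where called, and grey circles the other miRNAs. rno-miR-1-3p and rno-miR-1b lie near the top, and rno-miR-133a-3p and rno-miR-133b-3p just below 0.

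rno-miR-133a-3p, the main miR-133a arm and the partner of rno-miR-1-3p, was bright in both groups. It read 14.58, 14.10 and 14.22 in controls and 13.51, 13.997 and 13.40 in DSS rats. All 3 DSS values were below all controls, by a small margin for DSS rat 14. The difference was -0.67 ± 0.24 (SE), from 14.30 ± 0.25 to 13.63 ± 0.32 (SD, n = 3), with an unadjusted p of 0.0266 and an adjusted p of 0.0527 in limma, and so was not called. The scanner brightness was 25968, 25747 and 26971 in controls and 17578, 10575 and 11720 in DSS rats. In the authors' normalized table the groups overlapped, with 18295, 22169 and 21584 in controls and 17064, 16825 and 19942 in DSS rats. The value of DSS rat 16 held a single dim spot, at 1384 beside 14229, 15015 and 16251 for the other 3 spots, and this spot passed the limits for a usable spot. With the median of the 4 spots in place of the mean, DSS rat 16 read 14.18 and the groups overlapped by the lowest control at 14.14. The difference was then -0.33, with an adjusted p of 0.221 in limma.

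rno-miR-133a-5p, the other arm, read 10.34, 10.04 and 9.17 in controls and 9.03, 8.61 and 8.67 in DSS rats. The groups were separate, and control rat 11 and DSS rat 13 were close. It fell by 1.08 on the log2 scale, with an SE of 0.33 and an adjusted p of 0.0323 in limma, from 9.85 ± 0.61 to 8.77 ± 0.23 (SD, n = 3). The value of control rat 11 also held a dim spot, at 117 beside 1232, 1073 and 1362. With the median of the spots control rat 11 read 9.89, and the change was -1.26 with an adjusted p of 0.0127 in limma. The call was lost when control rat 9, control rat 10, DSS rat 14 or DSS rat 16 was left out, with changes of -0.88, -0.99, -0.84 and -1.04 and adjusted p-values of 0.0708, 0.0968, 0.126 and 0.0882 in limma. In the authors' values the change was -1.73 and -1.88 with pseudocounts of 50 and 1, both called. The call was also lost with 5 other settings given in the closing section.

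rno-miR-133b-3p, which differs from rno-miR-133a-3p at its last base only, read 14.53, 14.004 and 13.98 in controls and 13.45, 13.92 and 14.13 in DSS rats. The groups overlapped, with DSS rat 16 above 2 of the controls. The difference was -0.34 ± 0.26 (SE), from 14.17 ± 0.31 to 13.83 ± 0.35 (SD, n = 3), with an adjusted p of 0.294 in limma. Without DSS rat 13 the difference was 0.039. It was called lower without normalization (-0.85, adjusted p 0.0425 in limma) and with quantile normalization (-1.05, 0.0106). It was also called with scaling to the 75th percentile of the probes detected on all arrays (-1.04, 0.0328) or of all probes (-1.22, 0.0110). It was not called with spike-in scaling (-0.07, 0.916), 5S rRNA scaling (-0.43, 0.272) or in the authors' values. In those the difference was -0.18 with pseudocounts of 50 and 1 (0.426 and 0.548). Its scanner brightness did not overlap, at 24970, 24112 and 23591 in controls and 16877, 9992 and 13859 in DSS rats.

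rno-miR-133c was close to background, detected on 4 of 6 arrays, and missed on those of control rat 11 and DSS rat 16. It read 7.21, 7.09 and 6.87 in controls and 6.43, 6.65 and 6.72 in DSS rats, which did not overlap. The difference of -0.46 ± 0.18 (SE), from 7.05 ± 0.17 to 6.60 ± 0.15 (SD, n = 3), had an adjusted p of 0.0760 in limma. Its scanner brightness overlapped, from 78.4 to 154 in controls and from 67.2 to 142.9 in DSS rats. The difference was 0.0058 without normalization, 0.79 with scaling to the spike-in probes and 0.43 with scaling to the 5S rRNA probes, none of which passed the test.

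**Figure D3:**
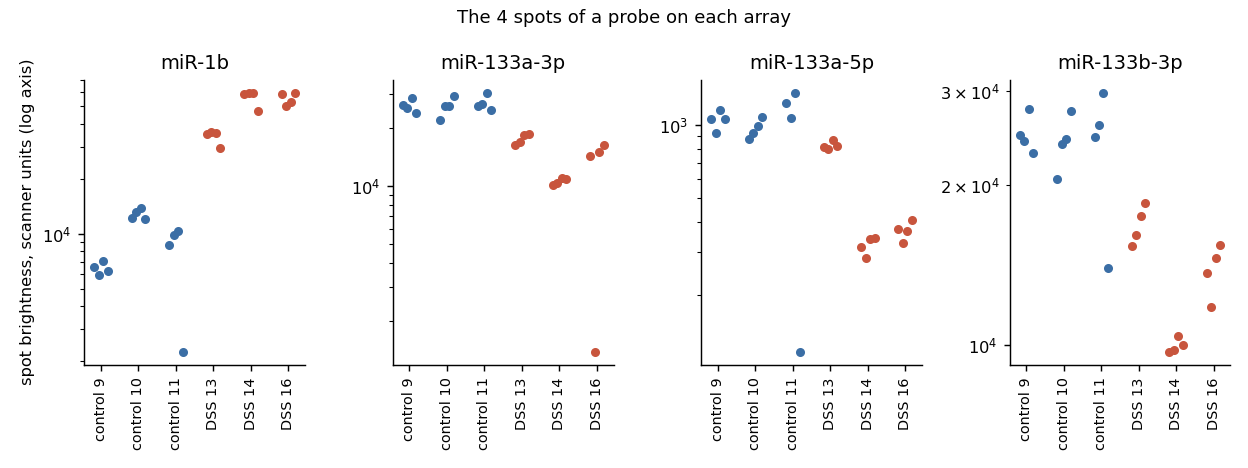
Brightness of the 4 spots of rno-miR-1b, rno-miR-133a-3p, rno-miR-133a-5p and rno-miR-133b-3p on each array (scanner units, log axis, each panel with its own range, control blue, DSS red). A single spot stood far below the other 3 for rno-miR-133a-3p on the array of DSS rat 16 and for rno-miR-1b and rno-miR-133a-5p on that of control rat 11.

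Spots of 1 probe otherwise lay close together. For rno-miR-1-3p the CV of the 4 spots was between 5.14% and 18.4% on the 6 arrays, and for rno-miR-206-3p between 7.55% and 16.4%. It reached 59.6% for rno-miR-133a-3p on the array of DSS rat 16, and 62.2% for rno-miR-133a-5p and 48.4% for rno-miR-1b on that of control rat 11. The dim rno-miR-1b spot read 2253, and the rno-miR-133b-3p spot of the same array read 13965 beside 24635 to 29834. On the array of control rat 11 a spot CV above 40% was seen for 24 of 255 detected probes, against 2 to 6 probes on each of the other arrays. With medians of the spots rno-miR-1-3p, rno-miR-1b and rno-miR-206-3p changed by 3.11, 3.00 and 1.23, each with an adjusted p of 0.0127 in limma.

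Partners were then compared within each array, as the log2 signal of 1 probe minus that of the other, so that any factor shared by the whole array drops out. The DSS and control values of this log2 ratio were compared by a 2-sided exact permutation test. As 6 arrays can be arranged in 20 ways, its p cannot go below 0.1. No pair could therefore pass 0.05. The adjustment was made over the 5 pairs compared. For 3 of the 4 pairs of probes detected on all arrays the groups did not overlap, with p = 0.1 in this exact test (0.125 after Benjamini-Hochberg adjustment). Single miRNAs already did not overlap in 187 of 282 cases (66.3%), and no such share was computed for other pairs. Each of the 3 sets a member called higher against a member with a lower mean in DSS hearts. The ratios thus follow from the values of the single members.

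The ratio of rno-miR-1-3p to rno-miR-133a-3p, whose hairpins share a transcript, was -2.73, -2.60 and -2.01 in controls and 0.08, 1.92 and 2.01 in DSS rats on the log2 scale. Every DSS rat was above every control, with DSS rat 13 the nearest to them. The level of such a ratio depends on how well each probe binds, and only its difference between groups is compared. The difference between groups was 3.78 ± 0.67 (SE), a 13.8-fold shift. It lay between 3.33 and 4.39 over the 24 other settings of the processing, the left-out arrays included, but not all of these could move it. Settings that changed only the filter or the test left it at 3.78 by construction. Scaling by 1 factor per array cancels in a ratio and gave the same 3.85 as no normalization. The ratio of rno-miR-1-3p to the other arm, rno-miR-133a-5p, went from 1.51, 1.47 and 3.04 to 4.55, 7.30 and 6.74, a difference of 4.19 ± 0.98 (SE). Every DSS rat was above every control here too. This difference lay between 3.33, without control rat 9 and with p = 0.2 in the exact permutation test, and 5.13, in the authors' values with a pseudocount of 1, and it was 5.08 without DSS rat 13.

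The ratio of rno-miR-206-3p to rno-miR-133b-3p, the pair on chromosome 9, was -6.32, -5.94 and -5.80 in controls and -4.54, -4.21 and -4.62 in DSS rats. All DSS rats were again higher, by 1.57 ± 0.20 (SE). The fifth pair, rno-miR-1b and rno-miR-133c, which are no transcript partners, could be read only where rno-miR-133c was detected. There the ratio was 5.36 and 5.99 in control rats 9 and 10 and 8.05 and 9.76 in DSS rats 13 and 14. Over all 6 arrays the exact permutation test gave p = 0.1, which entered the adjustment over the 5 pairs. No result is drawn from this pair because rno-miR-133c was not detected on the other 2 arrays. Between the arms of the miR-133a hairpin, the 3p to 5p ratio was 4.25, 4.06 and 5.05 in controls and 4.48, 5.39 and 4.73 in DSS rats. These values overlapped, with a difference of 0.41 ± 0.41 (SE) and p = 0.4 in the exact permutation test, which was also 0.4 after adjustment.

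**Figure D4:**
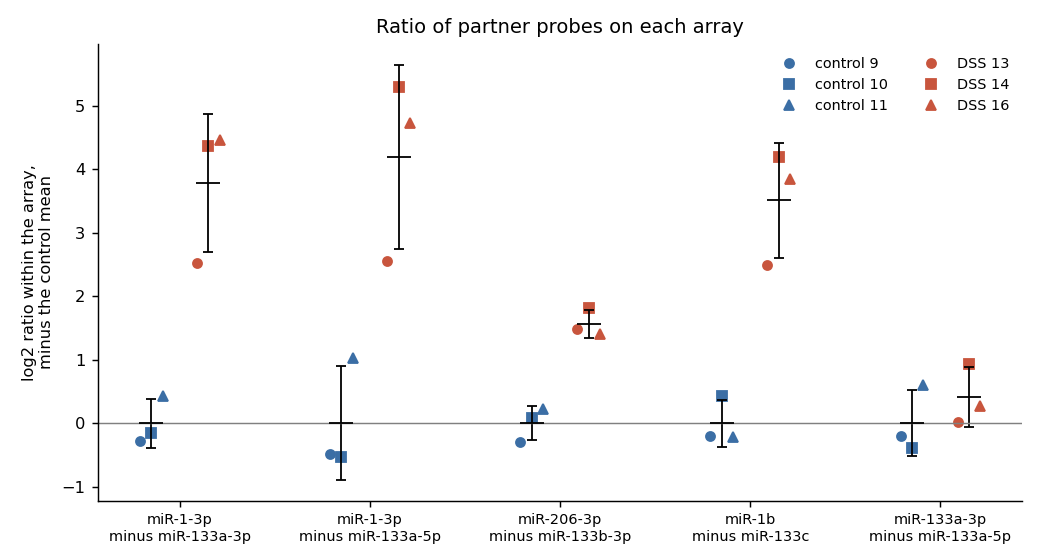
Log2 ratio of 2 probes on the same array for the 5 pairs, minus the control mean of that pair (control blue, DSS red, a marker per rat, bars the mean and SD of 3 rats). The first 3 ratios were higher on all 3 DSS arrays, by 1.57 to 4.19 on average, and the ratio of the 2 miR-133a arms overlapped. In the fourth ratio rno-miR-133c was not detected on the arrays of control rat 11 and DSS rat 16.

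Scaling of the arrays set the level of all values together. Without normalization the median change of the 282 miRNAs was 0.36 in place of -0.06. It was 1.14 with scaling to the spike-in probes, whose mean log2 signal was 11.83, 11.78 and 12.06 in controls and 11.73, 10.48 and 11.12 in DSS rats, and 0.78 with scaling to the 5S rRNA probes. It was 0.12 with quantile normalization, which gave 80 calls in each direction. The calls split into 81 higher and 38 lower without normalization, 148 and 12 with spike-in scaling, and 129 and 14 with 5S rRNA scaling, against 59 and 80 as reported. Relative to the median of all miRNAs, rno-miR-1-3p lay 3.18 above it as reported and 2.31 above it without normalization, and rno-miR-133a-3p lay at -0.60 and -1.53. Such scaling by 1 factor per array leaves these relative values alike, so relative to the median they were also 2.31 and -1.53 with spike-in and 5S rRNA scaling. rno-miR-1-3p, rno-miR-1b and rno-miR-206-3p were called higher under each of the normalizations tried. rno-miR-133a-3p had a negative difference in all 24 other settings, and was called lower in 6 of them and not called in 18. The 6 include no normalization (-1.18), quantile normalization (-1.52) and scaling to the 75th percentile of all probes (-1.55). The 18 include spike-in scaling (-0.40, adjusted p 0.495 in limma) and 5S rRNA scaling (-0.75, 0.0754). They also include the authors' values, at -0.20 with pseudocounts of 50 and 1 (0.399 and 0.510).

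**Figure D5:**
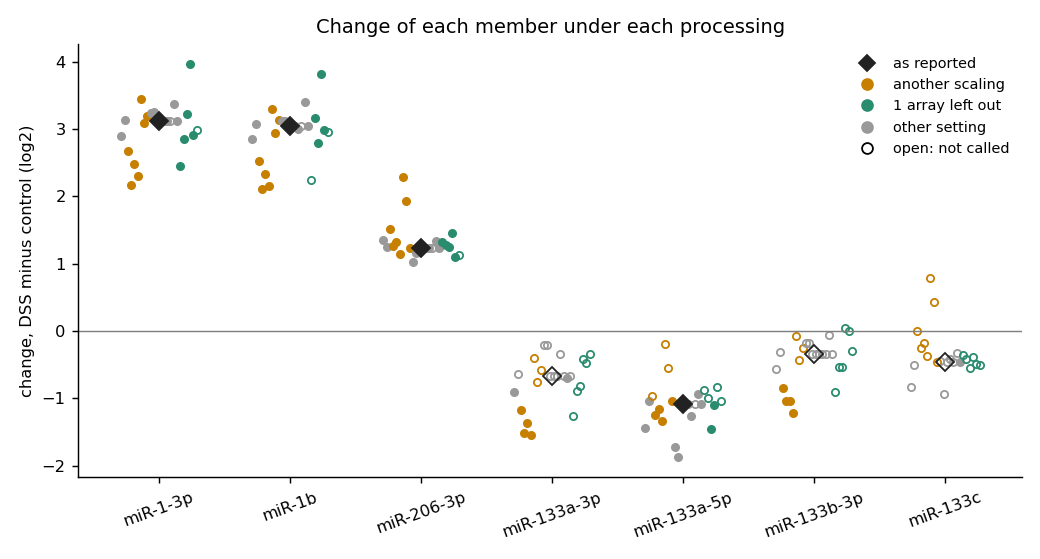
Change of each member (log2, DSS minus control) as reported (black diamond) and under each other setting (orange for another normalization, green for an array left out, grey for the rest, open where not called). The 3 members with the miR-1 seed stayed above 0 throughout, and the 2 miR-133a arms stayed below 0.

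The other arms of these hairpins, rno-miR-1-5p, rno-miR-206-5p and rno-miR-133b-5p, were detected on none of the 6 arrays. Muscle also holds miRNAs from introns of the myosin heavy chain genes, miR-208a, miR-208b and miR-499, which take part in the choice of myosin type. Of their 6 arms 2 were tested, and 1 was called. rno-miR-499-5p read 13.63, 12.13 and 13.02 in controls and 11.83, 10.15 and 10.54 in DSS rats. It fell by 2.09 with an SE of 0.54 and an adjusted p of 0.0213 in limma. These values did not overlap, but the scanner brightness did, at 12428, 5328 and 11085 in controls and 5743, 804 and 1242 in DSS rats. rno-miR-208a-5p read 9.24, 9.78 and 8.71 against 9.92, 10.11 and 9.75, with overlap, a difference of 0.68 and an adjusted p of 0.0910 in limma. rno-miR-499-3p was detected on 2 arrays, rno-miR-208a-3p on 1 and both miR-208b arms on none.

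The label of the tissue was checked with miRNAs known as markers of cell types, as the sum of their normalized signals on a linear scale. In whole tissue fewer cells of a type and less RNA per cell cannot be told apart. Of the 3 cardiac markers only rno-miR-499-5p was tested, and rno-miR-208b-3p passed detection on no array. The sum of the 3 was 4626 to 12938 in controls and 1259 to 3788 in DSS hearts. As scanner brightness above background, before normalization, the same sum overlapped, at 5252 to 12461 in controls and 718 to 5726 in DSS hearts. The sum of 6 leukocyte markers was 3223 to 6117 in controls and 10765 to 15066 in DSS hearts, with 3 of 4 tested markers called higher and 1 lower, and with the defining miR-142 arms detected on 1 array each. The brightest marker of this list, rno-miR-150-5p, weighs most in the sum, with mean log2 signals of 11.57 in controls and 13.15 in DSS hearts. The marker called lower was rno-miR-223-3p, at -1.35. This sum did not overlap above background either, at 2592 to 7578 and 10086 to 16323. The 4 erythroid markers summed to 3078 to 6392 and 4033 to 5841, with 1 called higher and 2 lower. The 2 smooth muscle markers summed to 11724 to 18222 and 8230 to 8447, with 1 called lower, and the 2 endothelial markers to 12259 to 20280 and 4694 to 10308, also with 1 called lower. The 3 fibroblast markers summed to 4817 to 4921 and 3451 to 4532, with 1 called higher and 2 lower, and overlapped above background, at 4296 to 6171 and 2817 to 6365. Of 8 markers of tissues other than heart 4 were tested, with 1 called higher and 2 lower, and the brain marker miR-124-3p passed detection on no array. The part of these differences in the values of the muscle family was not tested.

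Over the 6 arrays, the pattern most like that of rno-miR-1-3p outside the family was that of let-7f-5p, with a Pearson r of 0.998 of the log2 signals, then let-7a-5p and let-7b-5p, both with r = 0.996. These 3 rose by 3.32, 3.07 and 2.63 with adjusted p-values of 0.0151, 0.0151 and 0.0161 in limma, and 46 of the 275 miRNAs compared had r above 0.9. For rno-miR-133a-3p the most alike were miR-181a-5p (r = 0.932), miR-497-5p (0.922) and miR-24-3p (0.913), the only 3 of 275 above 0.9. The correlations are descriptions over 6 arrays in 2 groups and hold the difference between the groups. Within the family, r was 0.962 between rno-miR-1-3p and rno-miR-1b, 0.995 between rno-miR-1-3p and rno-miR-206-3p, 0.640 between rno-miR-133a-3p and rno-miR-133b-3p, and -0.63 between rno-miR-1-3p and rno-miR-133a-3p. The GC content of the members was 31.8% for rno-miR-1-3p, 27.3% for rno-miR-1b, 45.5% for rno-miR-206-3p, 54.5% for rno-miR-133a-3p, 36.4% for rno-miR-133a-5p, 50% for rno-miR-133b-3p and 57.1% for rno-miR-133c. The members that rose had less than the tested median of 47.8%, and so did rno-miR-133a-5p, which was called lower. Over the 282 miRNAs tested, Spearman's rho of GC content with the change was 0.107.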

How the data were processed

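MicroRNA was measured in the hearts of 3 control and 3 DSS rats on 1-color arrays of 3968 spots, 1 per rat, grouped by the treatment in the labels. The authors deposited scanner intensity values (per spot, the median brightness and its pixel SD, background included) and a table of intensity after background subtraction and a LOWESS filter (810 probes). Scanner software and the rule for repeated spots are not given in the sources used here. The members and lists were chosen with earlier results of these data known.

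From the scanner values, background was corrected with normexp (offset 50), log2 was taken, each probe's 4 spots were averaged, and arrays were normalized by cyclic LOWESS (span 0.7, 3 iterations, fitted to the 761 miRNA probes) in R 4.3.3 with limma 3.58.1. The offset understates folds of dim probes. A spot passed when it was more than 3 SD of empty spots above a background level (the dimmest 25% of miRNA spots, by their median), with a pixel CV under 0.5, and a miRNA was detected when at least 2 of 4 spots passed. Groups were compared with limma (2-sided) and Benjamini-Hochberg adjustment over 282 miRNAs, and pairs of probes by exact permutation. The steps were run on simulated arrays with a smaller spread between arrays than rno-miR-1-3p and rno-miR-1b had in DSS rats. They do not show how calls fare at that larger spread. Named were the members, the myosin-intron arms and the 3 miRNAs most like miR-1-3p and miR-133a-3p. RefSeq gave positions and all 7 members matched. Nothing says that hearts were pooled, and 1 array stands for 1 rat. The alternatives covered background, normalization, the authors' processed intensity, the filter, spots, the test and each array left out. A block for slide or scan was not run because none is named. Figures used Python 3.11.15 and matplotlib 3.10.9.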

Additional observations from a re-analysis of the deposited data

How the results depend on the processing

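Across 24 other settings, rno-miR-1-3p and rno-miR-206-3p kept their direction and were called in 22, and rno-miR-1b in 21. With the methods' t-test 0 of 7 members and 0 of 282 miRNAs passed after adjustment, against 6 members and 55.0% of the miRNAs at an unadjusted p under 0.05, and adjusted p of the 3 was 0.0608. Without DSS rat 16 the counts in limma were also 0 and 0, against 4 and 131 unadjusted, again with an adjusted p of 0.0608. Without control rat 9 members called were 2 and rno-miR-1b was 2.24 (adjusted p 0.0666). With each array left out, members called ranged from 0 to 4 and miRNAs called from 0 to 147, with 77, 87 and 65 without control rat 9, control rat 11 and DSS rat 14. Without the filter on dim probes 74 miRNAs were called. The rno-miR-133a-5p call was lost without normalization (-0.97), with spike-in (-0.19) or 5S rRNA scaling (-0.55), without the filter (adjusted p 0.0846) and with the t-test (0.0867). rno-miR-133b-3p turned to 0.039 without DSS rat 13 and was -0.90 without control rat 9, and rno-miR-133c to 0.0058, 0.79 and 0.43 without normalization and with spike-in or 5S rRNA scaling.

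The difference of rno-miR-1-3p against rno-miR-133a-3p ranged from 3.33 to 4.39 and that against rno-miR-133a-5p from 3.33 to 5.13, each in the same direction throughout. For every pair, settings that changed only the filter or the test could not move the difference. That of rno-miR-206-3p against rno-miR-133b-3p was 1.91 with plain subtraction, 2.31 with quantile normalization, 2.36 unscaled or with 1 factor per array, and 1.20 in the authors' values with a pseudocount of 50, and from 1.10 to 2.22 with arrays left out. That of rno-miR-1b against rno-miR-133c, a probe not detected on 2 arrays, was 2.52 unscaled or with 1 factor per array, 2.37 with quantile normalization and from 2.60 to 4.2 with arrays left out. That between the miR-133a arms turned to -0.21 unscaled or with 1 factor per array, -0.28 with quantile normalization and ranged from -0.39 (without control rat 9) to 0.70 with arrays left out, and was 1.52 and 1.67 in the authors' values with pseudocounts of 50 and 1 and 0.93 with the median of spots. The cause was not tested.

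No paired analysis was possible because no animal number occurs in both groups. Signal over background limits rno-miR-133c and rno-miR-206-3p most. All p-values rest on 3 rats per group, and those of limma also use the spread shared over the miRNAs tested.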
